A study of Mus musculus with 20 samples.

Results

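Complement is a cascade of secreted proteins that tags cells, debris and synapses, with receptors on immune cells that read the tags and fragments. The 9 complement genes described here, of 39017 genes in the count table, were chosen by name for their steps in that cascade. C1qa, C1qb and C1qc encode the chains of C1q, C4b and C3 the proteins that become bound to the target, and Cfb the protease of the alternative pathway. C3ar1 and C5ar1 encode the receptors of the fragments C3a and C5a, and Serping1 the C1 inhibitor. RNA was sequenced from microglia and astrocytes of adult male C57BL/6 mice (C57BL/6J in the study's methods), 3 to 4 months old, killed 7 days after lateral fluid percussion injury (FPI) or sham surgery. FPI drives a fluid pulse onto the exposed dura, and sham mice had the same surgery with no pulse. Cells came from the forebrain on the injured side, and microglia were sorted as CD11b+ cells with intermediate CD45 and astrocytes as ACSA-2+ cells. Each of the 4 groups (sham microglia, FPI microglia, sham astrocytes, FPI astrocytes) had 5 libraries.

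C1q binds a tagged surface and, through the proteases C1r and C1s, cleaves C4 and then C2. The resulting convertase cleaves C3, whose fragment C3b stays on the target and whose fragment C3a is released. In the brain C1q is best known as a microglial product, microglia take up C3-tagged material through complement receptor 3 (Itgam with Itgb2), and reactive astrocytes are known to make C3 and C4. The C1 inhibitor blocks C1r and C1s. The comparisons below ask which sorted cell type held the transcript of each step, and what differed 7 days after FPI.

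Library totals lay between 5623349 and 13110857 counts. The 10 microglial markers summed to between 21228 and 34623 CPM (counts scaled to library size) in microglia and to between 106 and 287 CPM in astrocyte libraries. The 10 astrocyte markers summed to between 10442 and 32582 CPM in astrocytes and to between 251.8 and 622 CPM in microglia. By these lists the sorts went with their labels. Oligodendrocyte markers (6 genes) were high in the astrocyte libraries, from 1617 to 17185 CPM, with overlapping ranges in sham and FPI mice. Sham astrocyte library 4 held more of them than of the astrocyte markers (17185 against 10442 CPM). FPI astrocyte library 4 held nearly as much (10890 against 12066 CPM). Markers of their precursors (6 genes) summed to 122 to 1314 CPM there and endothelial markers (6 genes) to 33.9 to 437 CPM, against at most 23.1 and 72.5 CPM in microglia libraries. By the animal numbers in the library names, FPI astrocyte libraries 2 and 5 share an animal and library 5 carries a microglia suffix. Its title and label were followed, and its microglial markers summed to 242 CPM. By those numbers 3 animals were used for both sorts. The p-values measure the spread between libraries, which were treated as independent.

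All 9 genes lie on the minus strand in GRCm38.p6, and the C1q genes are neighbours on chromosome 4 in the order C1qb (136880129 to 136886187), C1qc (136889804 to 136893065) and C1qa (136895917 to 136898803). Chromosome 17 holds C4b (34728380 to 34743882), Cfb (34856374 to 34862518) and C3 (57203970 to 57228136). C3ar1 is on chromosome 6 (122847138 to 122856161), C5ar1 on chromosome 7 (16246743 to 16259540) and Serping1 on chromosome 2 (84765387 to 84775444).

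Reads of C4b and Cfb could in part belong to other genes, and the sequences below show how C4b can be told from C4a. The C4b transcript was 96.14% identical to that of its neighbour C4a over 5367 aligned bases, and 8.26% of its 150-base windows occur unchanged in C4a. The coding stretch of 60 bases in which they differ most, in exon 21 of 41 of each transcript, holds 13 differences, set in capitals here (C4b at chr17:34735430-34735489, C4a at chr17:34816086-34816145, both minus strand, GENCODE M21).
C4b: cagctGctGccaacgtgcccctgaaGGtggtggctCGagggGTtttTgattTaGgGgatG
C4a: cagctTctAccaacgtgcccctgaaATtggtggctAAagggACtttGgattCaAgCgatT
C4a was counted at 0 to 20 reads in every library, against 135 to 3195 for C4b, so nearly all reads counted to the pair were given to C4b. Of the exonic bases of Cfb, 79.5% also lie in exons of Gm20547, a gene model on the same strand that was at 0 reads in all 20 libraries. The level of Cfb is therefore uncertain. None of the 150-base windows of the other 7 transcripts occurs unchanged in another gene.

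C1q transcripts were microglial. C1qa stood at 1574 ± 142 CPM in sham microglia (SD, n = 5) and at 0.375 ± 0.460 CPM in sham astrocytes. For C1qb the levels were 1366 ± 115 and 0.491 ± 0.792 CPM, and for C1qc 1628 ± 136 and 0.797 ± 0.797 CPM. Over the 5 sham astrocyte libraries there were 16 reads of C1qa, 20 of C1qb and 35 of C1qc in all, so these levels rest on few reads. The log2 difference between sham microglia and sham astrocytes was 12.07 (SE 0.75) for C1qa, 11.53 (SE 0.70) for C1qb and 11.02 (SE 0.77) for C1qc, with adjusted p of 1.7e-11, 1.14e-11 and 9.5e-11. Microglia and astrocytes differed in most genes, with 60.9% of 15077 tested genes called in sham mice and 60.9% in FPI mice, so a call by itself says little here. Calls required a log2 fold change beyond 0.6 in either direction and an adjusted p under 0.1, and 7 of the 8 complement genes tested were called in sham mice and 8 of 8 in FPI mice.

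The anaphylatoxin receptors were microglial as well. C3ar1, which binds C3a, was at 231 ± 17.3 CPM in sham microglia. In sham astrocytes it had 5 reads, all in library 5. Summed reads were 2119 times higher in sham microglia, with an exact 95% interval of 908 to 6528 that covers counting error only. C5ar1, which binds C5a, was at 36.1 ± 6.16 CPM in sham microglia and had 1 read over the 5 sham astrocyte libraries, a ratio of 1706 (306 to 67441). After FPI the ratios were 257 (189 to 361) for C3ar1 and 228 (105 to 623) for C5ar1.

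C4b and Serping1 were higher in the astrocyte libraries. C4b was at 87.0, 105, 101, 163 and 145 CPM in sham astrocyte libraries 1 to 5 and at 51.7, 23.0, 65.4, 47.8 and 25.5 CPM in sham microglia libraries 1 to 5. The groups did not overlap, and the level in microglia differed by -1.49 on the log2 scale (SE 0.32, adjusted p = 0.000356). After FPI this difference was -0.88 (SE 0.31, adjusted p = 0.0191), and the groups overlapped. Sham astrocyte library 4, with the highest C4b of its group, also held the most oligodendrocyte markers, whose part in the C4b level was not tested. Serping1, the C1 inhibitor, was at 8.93 ± 5.94 CPM in sham astrocytes and 1.37 ± 1.02 CPM in sham microglia, a log2 difference of -2.66 (SE 0.83, adjusted p = 0.00819). In FPI mice the difference was -4.73 (SE 0.91, adjusted p = 0.000124), with 0 reads in FPI microglia libraries 1 and 5. Astrocyte libraries 1 and 5 of each group were the lowest and the highest in Serping1. They were so as well in the summed markers of oligodendrocyte precursors and of endothelium. The part of such cells in the Serping1 level was not tested.

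C3 was near the same low level in both sham groups, 5.18 ± 3.43 CPM in microglia and 3.85 ± 2.40 CPM in astrocytes. The log2 difference of 0.38 (SE 0.61) was not called, with a 95% interval from -0.88 to 1.64. In FPI mice C3 was higher in microglia by 1.42 (SE 0.56, adjusted p = 0.0325), although the libraries overlapped, and without FPI microglia library 2 it was 1.02 with an adjusted p of 0.130. Cfb, the alternative pathway protease, had at most 8 reads in any library and was not tested.

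**Figure D1:**
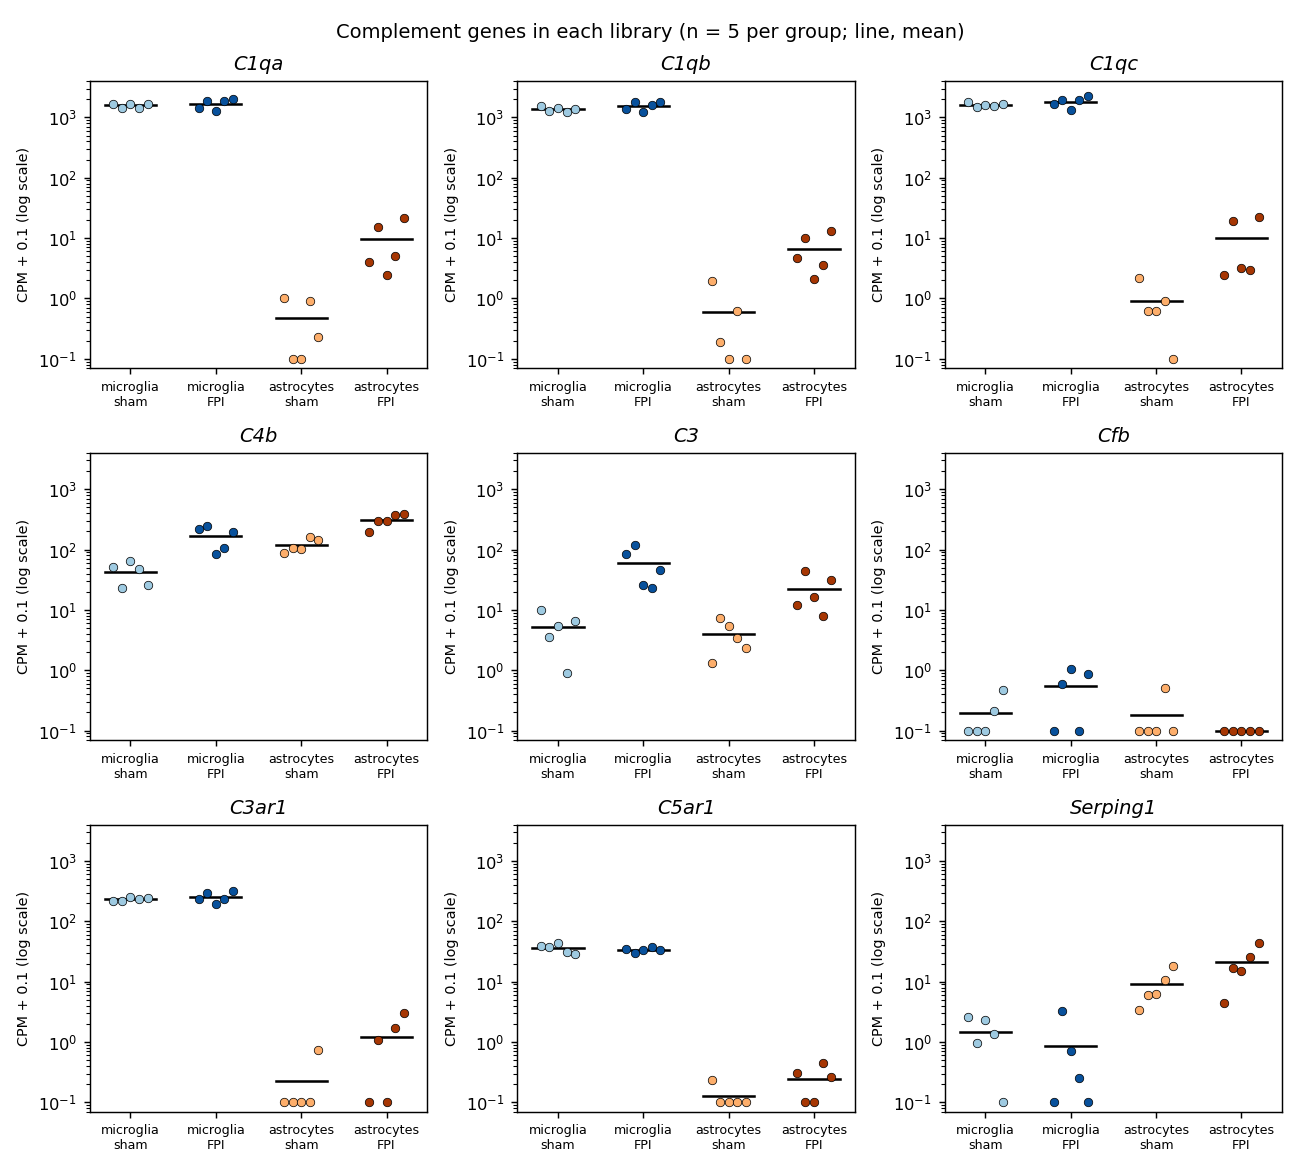
CPM of the 9 complement genes in each library on a log axis, with 0.1 added so that libraries at 0 can be shown; each point is a library in the order of replicates 1 to 5 and each line a group mean. C1qa, C1qb, C1qc, C3ar1 and C5ar1 are high only in the microglia panels, C4b and Serping1 are higher in astrocytes, and C3 and C4b stand above sham in every FPI library of both cell types.

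Between genes, levels are compared per kilobase of exon. In sham microglia C1qa came first of all 59 complement genes of the wider list, at 1513 ± 137 CPM per kilobase, followed by C1qb at 1255 ± 105 and C1qc at 843 ± 70.2. The libraries of C1qa and C1qb overlapped, and those of C1qb and C1qc did not. The place of C1qc behind C1qb depends on the length used. Its union exon length was 1931 bases, but its longest transcript has 1203 bases. For C1qa (1040 bases) and C1qb (1088 bases) the 2 lengths are the same. In CPM, not divided by length, C1qc had the highest mean of the 3 chains. C3ar1 stood at 53.8 ± 4.03, C5ar1 at 14.1 ± 2.40, C4b at 7.498 ± 3.17 and C3 at 1.01 ± 0.666 CPM per kilobase. In sham astrocytes C4b led the 9 genes at 21.1 ± 5.68 CPM per kilobase, ahead of Serping1 at 3.84 ± 2.55. C3 followed at 0.750 ± 0.466, with C1qb at 0.451 ± 0.728, C1qc at 0.413 ± 0.413 and C1qa at 0.360 ± 0.442, whose libraries overlapped. FPI astrocytes held C4b at 54.6 ± 13.7 CPM per kilobase. Behind it C1qa at 9.25 ± 8.08, Serping1 at 9.10 ± 6.34, C1qb at 6.05 ± 4.21, C1qc at 5.13 ± 5.10 and C3 at 4.31 ± 2.88 were not separated beyond their spread.

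**Figure D2:**
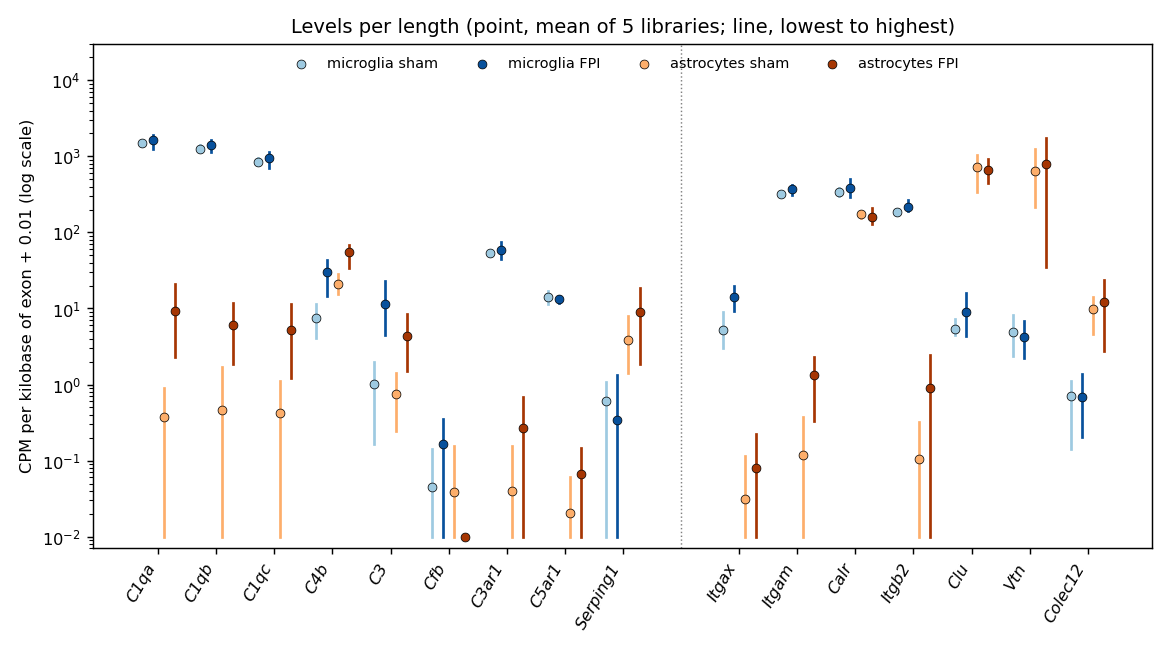
Level per kilobase of exon (CPM per kilobase plus 0.01, log axis) of the 9 genes, left of the dotted line, and of the 7 other complement genes named here, right of it, in the 4 groups; points are means of 5 libraries and lines run from the lowest to the highest library. The 3 C1q genes lead in microglia, and Clu and Vtn lead in astrocytes.

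In microglia C3 and C4b rose after FPI, and the C1q chains and receptors did not pass the test. C3 was at 9.98, 3.44, 5.26, 0.793 and 6.43 CPM in sham libraries 1 to 5 and at 84.9, 117, 25.9, 23.2 and 45.4 CPM in FPI libraries 1 to 5. Every FPI library stood above every sham library, and the lowest values in the FPI group were in libraries 3 and 4. The log2 fold change was 3.55 (SE 0.50, adjusted p = 0.000333). C4b was at 221, 248, 83.3, 104 and 193 CPM in FPI libraries 1 to 5, again with no overlap with the sham values above, and the log2 fold change was 2.01 (SE 0.30, adjusted p = 0.00072). Of 12143 genes tested in microglia 2.35% were called, 2.13% as higher, and of the 7 complement genes tested 2 were called, both higher. Of all tested genes 2.17% had every FPI library above every sham library.

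The C1q chains and the receptors overlapped between sham and FPI microglia. C1qa was at 1652, 1420, 1684, 1418 and 1695 CPM in sham libraries 1 to 5 and at 1445, 1840, 1296, 1867 and 2001 CPM in FPI libraries 1 to 5, which span the sham values on both sides. FPI library 3 was the lowest of its group for all 3 chains and for C3ar1, at 1228 CPM for C1qb, 1343 CPM for C1qc and 191 CPM for C3ar1. FPI means were 1690 ± 303 CPM for C1qa, 1554 ± 247 CPM for C1qb and 1819 ± 328 CPM for C1qc. C3ar1 had 213, 232 and 251 CPM as its lowest, median and highest sham library and 191, 238 and 318 CPM in FPI microglia. C5ar1 ran from 29.1 to 44.2 CPM in sham and from 30.2 to 37.1 CPM in FPI microglia, so every FPI library was inside the sham range. Log2 fold changes were 0.12 for C1qa (95% interval -0.18 to 0.41), 0.20 for C1qb (-0.08 to 0.48) and 0.18 for C1qc (-0.12 to 0.47), with adjusted p from 0.675 to 0.856. These 3 intervals lie inside the limits of 0.6 in either direction that a call required. For C3ar1 the value was 0.15 (-0.14 to 0.45), and for C5ar1 -0.08 (-0.42 to 0.26), and neither was called. Serping1 had 20, 12, 20, 11 and 0 reads in sham and 0, 25, 5, 1 and 0 reads in FPI microglia, too few to be tested, and Cfb had 0 to 8. The median log2 fold change was 0.18 over the 7 tested complement genes and -0.01 over all tested genes.

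Microglia libraries 4 and 5 carry another form of library name than libraries 1 to 3. Within libraries 1 to 3 the log2 fold change was 3.63 for C3 and 1.97 for C4b, and within libraries 4 and 5 it was 3.41 and 2.06, and all 4 passed the test. The astrocyte markers in the microglia libraries summed to 294 to 622 CPM after FPI and 251.8 to 369 CPM in sham mice, and all 10 had a positive log2 fold change, with Gfap alone called (2.78, adjusted p = 0.00772). The marker means in FPI microglia were 1.02% to 5.13% of those in FPI astrocytes, while C4b stood at 54.5% and C3 at 268% of the astrocyte mean. Markers of monocytes and border macrophages (8 genes) summed to 455, 302, 445, 26.5 and 21.2 CPM in sham microglia libraries 1 to 5. In FPI microglia libraries 1 to 5 they summed to 269, 194, 142, 22.001 and 61.4 CPM. Within libraries 1 to 3 every FPI library was thus below every sham library. Ly6c2 was at 0 in all 10. Markers of neutrophils (5 genes) summed to at most 10.6 CPM, with Ly6g at 0. Oligodendrocyte markers (6 genes) summed to 134 to 192 CPM in sham and to 196 to 286 CPM in FPI microglia, without overlap. The part of these other cells in the result was not tested. A higher level in a sorted sample cannot be told apart into more cells with the transcript and more transcript per cell.

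In astrocytes 5 of the 6 complement genes tested were higher in every FPI library than in any sham library. Of all 13741 tested genes 0.451% were, but none of the 6 passed the test. C1qa, C1qb and C1qc passed the expression filter only through their FPI libraries, so the filter partly set this count. C4b was at 192, 299.9, 302, 374 and 388 CPM in FPI astrocyte libraries 1 to 5, against 87.0 to 163 CPM in sham mice. Its log2 fold change was 1.39 (SE 0.24, adjusted p = 0.151), the sixth smallest p of all genes tested. C3 was at 1.19, 7.22, 5.21, 3.38 and 2.27 CPM in sham and at 11.8, 43.2, 16.5, 7.73 and 31.4 CPM in FPI libraries, where sham library 2 and FPI library 4 nearly met. Its log2 fold change was 2.53 (SE 0.54, adjusted p = 0.558). Serping1 was at 3.32, 5.91, 6.26, 10.8 and 18.4 CPM in sham and at 4.32, 17.0, 15.2, 25.4 and 43.8 CPM in FPI libraries. These overlapped, and the log2 fold change of 1.26 (SE 0.55) had an adjusted p of 0.999. The oligodendrocyte precursor markers summed to 152, 308, 226, 376 and 626 CPM in sham and to 122, 354, 370, 617 and 1314 CPM in FPI libraries, with none of the 6 at 0 in either group. Endothelial markers summed to 33.9, 389, 121, 214 and 437 CPM in sham and to 65.8, 226, 353, 242 and 407 CPM in FPI libraries. Libraries 1 and 5 of each group were the lowest and the highest in Serping1 and in both marker lists. The part of those cells in the result was not tested.

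Only 1 gene of the whole table was called in astrocytes, 0.00728% of those tested, with 319 at an unadjusted p below 0.05. DESeq2 called 39 genes there, among them 5 of the complement genes (C1qa, C1qb, C1qc, C3 and C4b, with adjusted p from 7.27e-05 to 0.0151). The study itself used DESeq2 on salmon estimates, with the same limits of fold change and adjusted p. It reported many more changed astrocyte genes than the main test here, and placed C4b among the most significant. The fit of all 20 libraries called 53, among them C4b (adjusted p = 0.0883) and the 3 C1q chains (0.00203 to 0.0151). C4b was also called in other fits, among them those with no filter beyond 1 count (adjusted p = 0.0949), with a term for replicates 4 and 5 (0.00916) and without FPI astrocyte library 1 (1.51, adjusted p = 0.0999). Within astrocyte libraries 1 to 3 the log2 fold changes were 1.47 for C4b and 2.40 for C3, and within libraries 4 and 5 they were 1.31 and 2.77, none of them called. The median over the 6 tested complement genes was 3.10, and -0.01 over all genes. The 3 C1q chains passed the expression filter only through their FPI libraries, so the filter partly set the first median.

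C1q transcripts were almost absent from the sham astrocyte libraries and stood at low levels in every FPI astrocyte library, without passing the test. C1qa was at 0.928, 0, 0, 0.820 and 0.126 CPM in sham and at 3.91, 15.4, 2.36, 4.92 and 21.5 CPM in FPI astrocyte libraries 1 to 5. C1qb was at 1.86, 0.0869, 0, 0.512 and 0 CPM in sham and at 4.63, 9.9995, 1.99, 3.51 and 12.8 CPM in FPI libraries. C1qc was at 2.12, 0.522, 0.521, 0.820 and 0 CPM in sham and at 2.37, 19.1, 3.11, 2.81 and 22.2 CPM in FPI libraries. The highest values of all 3 chains were in FPI libraries 2 and 5, which share an animal number. Log2 fold changes were 4.71 (SE 0.96, adjusted p = 0.429) for C1qa, 3.81 (SE 0.98) for C1qb and 3.67 (SE 0.90) for C1qc, the last 2 with an adjusted p of 0.999. With libraries 2 and 5 summed they were 4.30, 3.49 and 3.19.

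Markers of microglia also had higher mean levels in the FPI astrocyte libraries, with overlapping sums over the 10 markers. These sums include Sall1, which had the largest share of its microglial mean and a log2 fold change of 0.08 in astrocytes. They can therefore understate the difference in the other markers. The summed level of the 10 was 106 to 180 CPM in sham and 139 to 287 CPM in FPI astrocytes, and none was at 0 in either group. All 7 that could be tested had a positive log2 fold change, with a median of 2.96. Of these Cx3cr1, Csf1r, Ctss and Fcrls could not have passed the expression filter on sham libraries alone. Tmem119, Trem2 and Siglech did not pass it, so the filter partly set this count and median. The called gene in astrocytes was Ctss, a lysosomal protease on that list (4.52, adjusted p = 0.0798). As a share of the mean in microglia of the same condition, C1qa was at 0.0238% in sham and 0.569% in FPI astrocytes, C1qb at 0.0360% and 0.423%, and C1qc at 0.0489% and 0.545%. C3ar1 was at 0.0545% and 0.433%, and C5ar1 at 0.0734% and 0.423%. Leaving out Sall1 (7.15% and 8.95%), which was set aside after its values were seen, the 9 other markers had shares of 0.0195% to 0.520% in sham astrocytes (median 0.0364%) and 0.0773% to 0.821% in FPI astrocytes (median 0.357%), so the C1q and receptor shares lay within the marker range in both conditions. The part of microglial transcripts in the astrocyte values was not tested. For C3 the shares were 74.4% and 37.3%, and for C4b 282% and 183%.

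**Figure D3:**
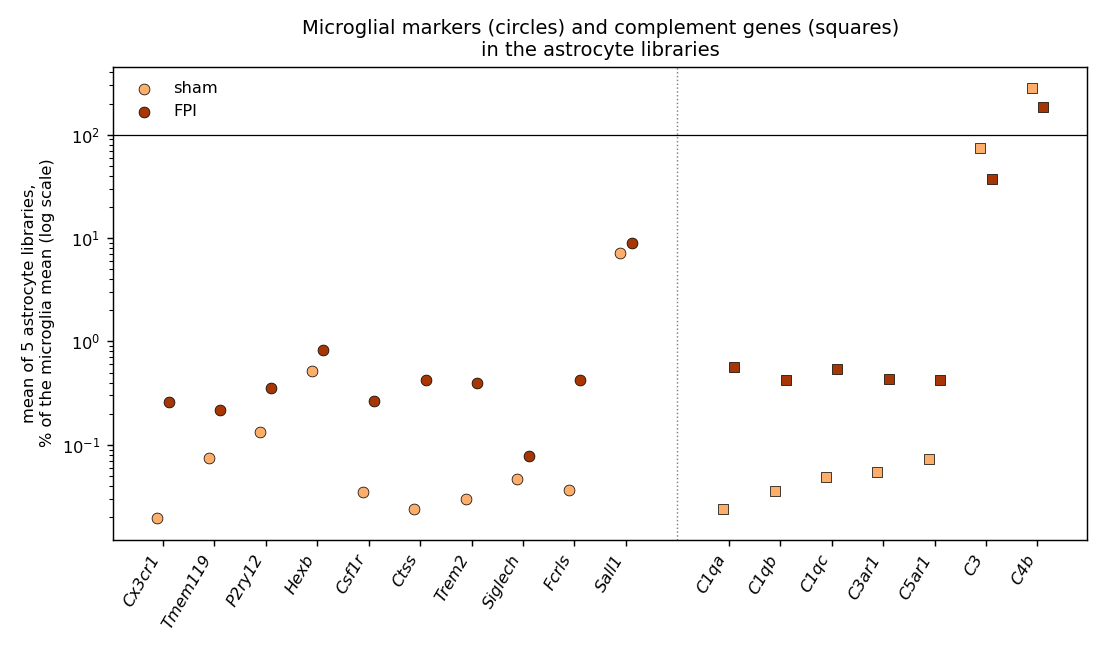
Mean level in the 5 astrocyte libraries as a percent of the mean in microglia of the same condition (log axis), for 10 microglial markers (circles) and 7 complement genes (squares); the line marks 100%. The C1q chains, C3ar1 and C5ar1 lie at 0.423% to 0.569% after FPI, among the markers, while C3 and C4b lie at 37.3% and 183%.

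The effect of FPI differed between the cell types for C1qa and C1qb. The difference of the log2 fold changes, microglia minus astrocytes, was -4.59 for C1qa (SE 0.82, adjusted p = 0.0214) and -3.63 for C1qb (SE 0.76, adjusted p = 0.068), where 0.199% of 15077 genes were called. For C1qc it was -3.48 (SE 0.81, adjusted p = 0.129), and C3ar1 (-2.93), C5ar1 (-2.25) and Serping1 (-2.07) were not called. C3 (1.04, 95% interval -0.67 to 2.76) and C4b (0.62, -0.30 to 1.54) were not shown to differ between the cell types. The call for C1qb was lost in 13 of the 20 fits that left out 1 library, with the highest adjusted p, 0.171, without sham astrocyte library 2. No call remained when the microglia of the 3 animals used for both sorts were left out (C1qa -4.59, adjusted p = 0.155). The 7 tested microglial markers given above had positive log2 fold changes in astrocytes as well, with the limit of the filter given there.

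**Figure D4:**
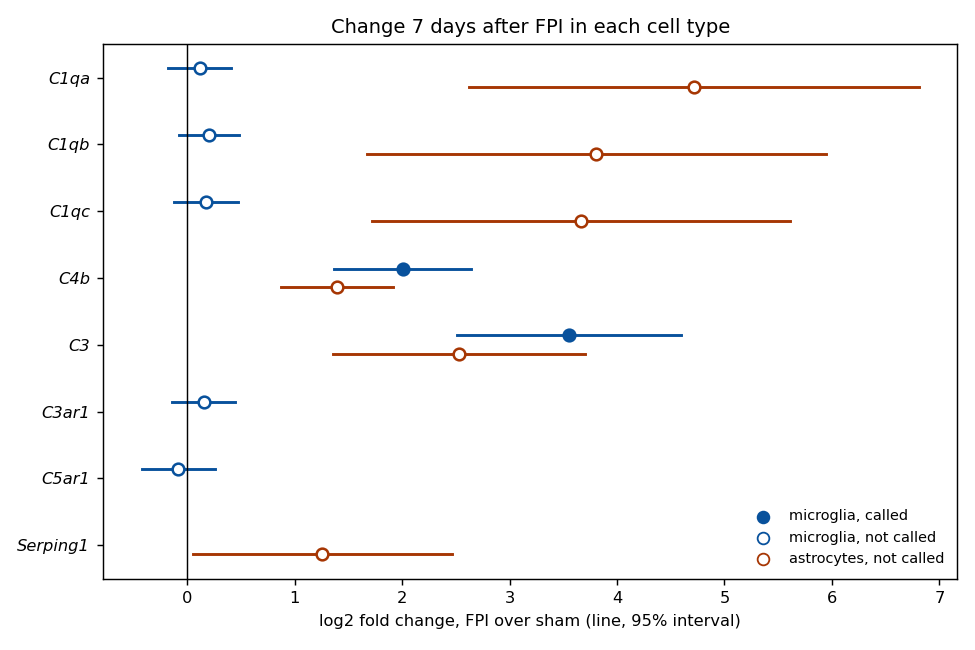
Log2 fold change of FPI over sham with its 95% interval in microglia (blue) and astrocytes (brown) for the complement genes tested; filled points were called. C3 and C4b lie right of 0 in both cell types and are filled in microglia alone, and the C1q chains lie near 0 in microglia and between 3.67 and 4.71 in astrocytes.

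The proportions of the 3 C1q chains were close in sham and FPI microglia. C1qa made up 34.4% ± 1.25 of the C1q reads of sham microglia (SD, n = 5) and 33.3% ± 0.892 of those after FPI, C1qb 29.9% ± 0.940 and 30.8% ± 1.14, and C1qc 35.6% ± 0.955 and 35.9% ± 1.33. The differences, FPI minus sham, were -1.10, 0.856 and 0.244 percentage points, and none passed an exact permutation test, two-sided (p = 0.159, 0.246 and 0.746, adjusted over 6 tests 0.476, 0.492 and 0.746), where the smallest p the design allows is 0.00794. In FPI astrocytes, with 60 to 356 C1q reads per library, the shares were 36.8% ± 4.54, 29.1% ± 8.29 and 34.1% ± 9.99, and their differences from FPI microglia, 3.44, -1.68 and -1.77 percentage points, did not pass the same exact test (adjusted p from 0.476 to 0.746). Sham astrocytes had too few C1q reads for such shares.

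Of 50 other complement genes 43 had reads. In microglia 17 of them were tested and only Itgax was called. Itgax, the CD11c chain of complement receptor 4, had 14.4, 18.6 and 42.8 CPM as its lowest, median and highest sham library and 45.1, 57.3 and 96.0 CPM in FPI microglia. Its log2 fold change was 1.49 (SE 0.29, adjusted p = 0.00702), but within microglia libraries 4 and 5 it was 0.48 (adjusted p = 0.486), and in the fit of all 20 libraries it was not called (1.47, adjusted p = 0.196). In astrocytes 20 were tested and none was called. Median log2 fold changes of the tested genes were 0.18 in microglia and 0.12 in astrocytes.

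Of 9 other receptors and C1q binding proteins 7 were tested, and 5 were called higher in microglia of sham mice and none in astrocytes. These were Itgam, Itgb2, Itgax, C5ar2 and Calr, while Cd93 (8.44 ± 5.02 CPM in sham microglia and 13.4 ± 9.51 CPM in sham astrocytes) and C1qbp (24.7 ± 6.43 and 24.9 ± 7.47 CPM) were not called. C5ar2, Cd93 and C1qbp were chosen for naming after their values were seen. Itgam and Itgb2, which form complement receptor 3, were at 1623 ± 80.7 and 570 ± 44.7 CPM in sham microglia and at 0.538 ± 0.781 and 0.288 ± 0.399 CPM in sham astrocytes. CD11b, the product of Itgam, was used in the sort, and 68.7% of the exonic bases of Itgam are shared with another gene model, Gm49368. Calr, calreticulin, a chaperone that binds C1q, was nearer between the cell types, at 972 ± 90.9 and 507 ± 54.5 CPM. In sham mice 7 of 23 other complement genes tested were called higher in microglia, beside 25.3% of all tested genes, and 9 higher in astrocytes, beside 35.6%.

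Clu and Vtn, fluid-phase regulators of the terminal pathway, were called higher in astrocyte libraries. Clu, clusterin, was at 2481 ± 1016 CPM in sham astrocytes and 18.3 ± 4.06 CPM in sham microglia, a log2 difference of -7.08 (SE 0.41). Vtn, vitronectin, was at 1298 ± 790 and 10.1 ± 4.34 CPM in the same groups. Its astrocyte libraries 1 to 5 spread widely, at 442, 1193, 904, 1395 and 2558 CPM in sham and at 71.5, 1136, 1121, 2104 and 3538 CPM after FPI. Libraries 1 and 5 were again the lowest and the highest of each group, as for the precursor and endothelial markers given above. The part of those cells in the Vtn level was not tested. Colec12, a scavenger receptor of the collectin family, was at 85.4 ± 30.04 and 6.05 ± 4.14 CPM. Its astrocyte libraries 1 and 5 were likewise the lowest and the highest of each group. None of the 3 was called after FPI in either cell type by the main test, nor were Itgam, Itgb2 and Calr. In astrocytes Itgam had a log2 change of 3.72 (SE 0.99, adjusted p = 0.999), and, like the C1q chains, it was called with DESeq2 (3.71, adjusted p = 0.0263) and in the fit of all 20 libraries (3.77, adjusted p = 0.00882). Its FPI effect differed between the cell types, by -3.58 (SE 0.78, adjusted p = 0.0896), a call that held in 3 of the 20 fits that left out 1 library, with adjusted p from 0.0113 to 0.177. Clu in FPI microglia was at 31.2 ± 15.3 CPM, with a log2 change of 0.78 (SE 0.27, adjusted p = 0.193), where all 10 astrocyte markers were positive as well. It was called within microglia libraries 1 to 3 (1.28, adjusted p = 0.0181), with no filter beyond 1 count (0.77, adjusted p = 0.0631) and without FPI library 5 (0.94, adjusted p = 0.051), and was -0.19 within libraries 4 and 5.

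The genes of nearest pattern to each member over the 20 libraries were found by the root mean square difference of log2 CPM after centring each gene on its mean. For C1qa they were C1qb (0.47) and Itgam (0.79), for C1qb C1qa (0.47) and C1qc (0.71), and for C1qc C1qb (0.71) and Laptm5 (0.87). C3ar1 was nearest to Fcgr1 (0.54) and Emr1 (0.64), and C5ar1 to Nlrp1a (0.56) and Snx20 (0.57). C3 had no neighbour as close, with Oasl2 at 1.03 and Usp18 at 1.11, both known as interferon-induced genes. C4b was nearest to Ifit1 (0.68), also interferon-induced, and Tpx2 (0.68), and Serping1 to Igf2 (0.98) and Col3a1 (1.09). The libraries of each group share a cell type and a condition, so the values are a description.

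Promoter sequence, from 250 bases before to 50 bases after the start in RefSeq, was at hand for C1qb, C1qc, C3ar1, C5ar1 and C3. Both strands were searched for an interferon-stimulated response element, a gamma-activated site (TTCNNNGAA), a kappa B site and a C/EBP site (TTGCNNAA), which 3.44%, 8.30%, 0.411% and 10.8% of 32851 promoters hold. Only the C3 promoter had a match, a C/EBP site whose first base lies 45 bases before the start. Its 250 bases upstream of the start (chr17:57228137-57228386, minus strand, GRCm38.p6) are shown because C3 had the largest called change after FPI of the 9 genes, with the match in capitals.
C3: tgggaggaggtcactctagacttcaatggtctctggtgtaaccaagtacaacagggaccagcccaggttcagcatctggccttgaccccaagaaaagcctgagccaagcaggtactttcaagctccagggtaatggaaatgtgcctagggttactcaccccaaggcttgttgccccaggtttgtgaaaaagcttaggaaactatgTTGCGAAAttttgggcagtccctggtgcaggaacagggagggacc
A match describes the letters alone.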

How the data were processed

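Total RNA of 20 libraries was sequenced from a stranded kit for picogram inputs. The authors aligned reads to GRCm38 with HISAT2 2.1.0, and the submitters' processing notes name featureCounts. The deposited values are whole-number counts of reads per gene, not normalized. Their own tests used salmon estimates in DESeq2, which were not used here. Of 39017 identifiers 37607 matched GENCODE M21, with 99.81% of counts.

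Counts were fitted in edgeR 4.0.16 (R 4.3.3) with filterByExpr, TMM factors and the quasi-likelihood test, with Benjamini-Hochberg adjustment over all genes tested. Each cell type was fitted alone for FPI against sham, while contrasts of the cell types, and of their FPI effects, came from all 20 libraries together. Levels are CPM on the TMM scale over 20 libraries, as mean ± SD, and per-kilobase levels are divided by the union exon length. The SE of a log2 fold change is its absolute value over the square root of the quasi-likelihood F statistic, and 95% intervals use it. It is approximate for genes near 0 reads in a group. Ratios of summed reads have exact binomial intervals. Named genes are the 9 members, other complement genes called after FPI, the 4 of highest mean CPM in each sham group, and 2 genes of nearest pattern for members with a mean of at least 1 CPM, with 0.1 added before log2; 1 of the named genes is not reported here. The code was tested on simulated data. Alternatives were DESeq2 1.42.0, RLE factors, other filters, robust empirical Bayes, a replicate block, terms for or subsets of replicates, shared animals left out and each library left out; astrocyte replicates 1 to 3 or 4 and 5 alone were chosen after seeing the data. The members and lists were chosen with earlier results of these data known. Python 3.11.15, pandas 2.3.3, scipy 1.17.1 and Biopython 1.88 were used.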

Additional observations from a re-analysis of the deposited data

Results flagged for a closer look

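Among 35 groups of 5 libraries with any spread, 5 had a library far from the other 4. Chance alone flags about 1 in 20 groups of continuous values, a rate that does not hold for counts near 0. C1qb was at 1.86 CPM in sham astrocyte library 1, C3ar1 at 0.631 CPM in sham astrocyte library 5, C5ar1 at 0.133 CPM in sham astrocyte library 1 and Cfb at 0.410 CPM in sham astrocyte library 4, all from at most 14 reads. For C3ar1, C5ar1 and Cfb the other 4 libraries were at 0, which fixed the flag in advance. Serping1 was at 3.12 CPM in FPI microglia library 2, from 25 reads.

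The change after FPI differed between the cell types by the test of the difference itself for C1qa, at -4.59 on the log2 scale (microglia minus astrocytes), and for C1qb, at -3.63. Both lie with a median log2 fold change of 2.96 for the 7 tested microglial markers in the astrocyte libraries. The expression filter partly set that median, and the part of those markers in the result was not tested. The call for C1qb held in 7 of the 20 fits that left out 1 library. Neither call remained when the microglia of the animals used for both sorts were left out.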

How the results depend on the processing

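The calls of C3 and C4b in microglia held in every fit run, except that C3 was filtered out where at least 10 counts in every library were required, which left 1 complement gene called. In microglia 285 genes were called, 121 in the fit of all 20 libraries, 99 within replicates 4 and 5, and 177 to 423 with 1 library left out, the lowest without sham or FPI microglia library 2 (177 each). In astrocytes the 1 call became 39 with DESeq2, 9 with no filter beyond 1 count, 53 in the fit of all 20 libraries, 6 with a term for replicates 4 and 5, 3 within replicates 1 to 3, 0 within replicates 4 and 5, and 0 at an adjusted p below 0.05, with at least 10 counts, with robust empirical Bayes or with FPI libraries 2 and 5 summed, and 0 to 3 with 1 library left out (0 without sham libraries 1 to 4 or FPI libraries 2, 4 or 5). Complement genes called in astrocytes were 0, against 5 with DESeq2, 4 in the fit of all 20, 1 with every counted gene or with the term, and 0 to 1 with 1 library left out.

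Between cell types, requiring at least 10 counts left 4551 genes in sham and 4467 in FPI mice, and 1 complement gene in each. In the test of unequal FPI effects 30 genes were called, 189 with DESeq2, 1 with at least 10 counts, 69 with the astrocytes and 8 with the microglia of the 3 shared animals left out, and 21 to 48 with 1 library left out (48 without FPI astrocyte library 3). Of the 9 complement genes 2 were called there, against 3 with DESeq2 or every counted gene, 1 at an adjusted p below 0.05 or with FPI astrocyte libraries 2 and 5 summed, 0 with at least 10 counts or without those microglia libraries, and 1 to 3 with 1 library left out (C1qc was gained without sham astrocyte library 1 or FPI astrocyte library 1, 3 or 4). The cause was not tested.

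The replicate numbers were not taken as pairs, since no label gives them as such and not every pair passed the limit of 0.1. The correlation of deviations between same-numbered libraries was above 0.1 in 0 of 5 pairs in microglia (-0.04 to 0.08) and in 4 of 5 in astrocytes (-0.004 to 0.41), and 5 and 7 of 10 libraries correlated best with their own number, a hint of shared variation in astrocytes that comes from the data and not the design. A replicate block gave 11 genes and 2 complement genes called in astrocytes (C3, 2.47, adjusted p = 0.0938, and C4b, 1.397, adjusted p = 0.0101), and 114 genes for the difference in the effect.

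With 1 library left out, the difference in the C1qc share ranged from -0.15 to 0.553 percentage points between FPI and sham microglia and from -3.98 to 1.34 between FPI astrocytes and FPI microglia, and that in the C1qa share between the last 2 groups from 1.70 to 4.72 (without FPI astrocyte library 3, exact permutation p = 0.0317, two-sided). Changes that the main test did not call also turned sign. In microglia these were C1qa (-0.072), C1qc (-0.00459) and Calr (-0.035) within replicates 1 to 3, C5ar1 (0.29), Clu (-0.19, from 0.78), Vtn (0.24) and Colec12 (0.59) within replicates 4 and 5, and Colec12 with a replicate block (0.018) or a term for replicates 4 and 5 (0.13). In astrocytes Colec12 (-0.042) and Vtn (-0.10) turned within replicates 1 to 3, Calr (0.014) and Clu (0.16) within replicates 4 and 5, and Vtn (-0.15) with a replicate block. With 1 library left out, C5ar1 in microglia ranged from -0.15 to 0.0062 (positive without sham library 3), Colec12 from -0.43 to 0.217 and Vtn from -0.46 to 0.049. In astrocytes Colec12 ranged from -0.086 to 0.56, Clu from -0.26 to 0.063 and Vtn from -0.23 to 0.72, and for the difference between the cell types Colec12 ranged from -0.77 to 0.033, Itgax from -3.21 to 0.69 and Vtn from -0.95 to 0.00017.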
